A study of Mus musculus with 6 samples.

Results

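The chromatin around 43 genes of lipid oxidation and lipid synthesis was examined in mouse thymus, out of 21631 protein-coding genes on chromosomes 1 to 19 and X. The genes were picked by their function, and all 43 were matched by symbol to the GRCm38 gene table. They comprise 12 genes of mitochondrial fatty acid oxidation, 4 of electron transfer and ketone metabolism, 1 of peroxisomal oxidation, 10 of fatty acid synthesis and remodelling, 10 of sterol synthesis and 6 of transcriptional control. ATAC-seq, which marks open chromatin by the cuts of a transposase, was run on 3 thymus libraries of p53 AD/- mice and 3 of p53 -/- mice (called null here), to ask where open chromatin differs between these germline p53 genotypes. All 6 libraries came from bulk thymus of animals aged 4 weeks on a mixed background of BALB/C and C57BL6. AD/- mice carry 1 p53 null allele beside the AD allele, and null mice carry only null alleles, so no library holds wild-type p53 and each difference is between the AD allele and no p53. The labels do not say whether the libraries of a genotype came from separate mice, so a p-value measures only the spread between libraries.

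Mitochondria burn fatty acids in repeated turns of a cycle that shortens the acyl chain, after the chain has been carried across the inner membrane as acylcarnitine. The reverse route builds fatty acids from cytosolic acetyl-CoA, and a branch from the same acetyl-CoA makes cholesterol by way of mevalonate and squalene. The SREBP transcription factors drive the synthetic genes when membrane sterol is low, INSIG1 holds them in the endoplasmic reticulum when sterol is plentiful, and the liver X receptors respond to oxidised sterols. Dividing thymocytes need membrane lipid.

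Each library was deposited as a list of peak summits, the position of the highest signal in each called peak, with a score. The lists held 54615, 60157 and 44492 summits in AD/- libraries 1 to 3 and 54139, 55647 and 58017 in null libraries 1 to 3, so AD/- library 3 had the shortest list. Read depth is unknown, and a summit that is missing from a list may be an open site that was not called. All 12 thymocyte marker genes (Cd3e, Cd4, Cd8a, Ptcra, Rag1 and others) had a summit within 1 kb of an annotated gene end in every library. The same held in every library for 3 of 8 adipocyte genes (Plin1, Fabp4 and Pnpla3, with none at Adipoq, Lep, Cidec, Plin4 or Retn), 2 of 8 hepatocyte genes and 0 of 4 B cell genes. The other genes of these lists had none in any library. A yes-or-no call of this kind cannot show whether the share of adipocytes or hepatocytes differed between libraries. Of 4 myeloid genes, Cd14 and Itgam had one in all libraries except AD/- library 3. Of 5 thymic epithelial genes, AD/- libraries had 1, 2 and 2 with a summit and null libraries had 3, 3 and 2. In bulk tissue, fewer cells of a type and less open chromatin per cell cannot be told apart.

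Promoter sequences are shown for the 7 genes on which the results below turn, as 300 bases from 250 before to 50 after the annotated start (RefSeq, GRCm38.p6), 5′ to 3′ along the gene. Hmgcs1 and Mlxipl are shown because they alone among the 34 matched genes hold a sterol regulatory element in this window, Mvk for its CCAAT boxes, Etfdh for an NRF1 motif in the promoter with the top-scoring oxidation summit, Elovl5 for a summit that fell on 1 base in all libraries, Hadhb for the summit it shares with Hadha, and Elovl6 for a summit called only in AD/- libraries. Capitals mark the sterol regulatory element and the CCAAT boxes (ATTGG on the other strand) in Hmgcs1, the sterol regulatory element in Mlxipl, the CCAAT boxes in Mvk, the 2 overlapping NRF1 matches in Etfdh, and the E-box and CCAAT boxes in Elovl5. In Hadhb capitals mark the 61 bases spanned by the summits of the 6 libraries, and in Elovl6 the 53 bases spanned by the summits of AD/- libraries 2 and 3.
Hmgcs1 (chr13:119690101-119690400, plus strand): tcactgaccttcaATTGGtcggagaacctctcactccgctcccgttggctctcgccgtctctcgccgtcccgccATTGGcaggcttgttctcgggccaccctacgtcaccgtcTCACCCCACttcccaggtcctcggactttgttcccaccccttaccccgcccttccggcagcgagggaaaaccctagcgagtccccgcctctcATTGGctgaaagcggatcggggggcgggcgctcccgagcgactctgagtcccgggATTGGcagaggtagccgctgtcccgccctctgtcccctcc
Mlxipl (chr5:135106641-135106940, plus strand): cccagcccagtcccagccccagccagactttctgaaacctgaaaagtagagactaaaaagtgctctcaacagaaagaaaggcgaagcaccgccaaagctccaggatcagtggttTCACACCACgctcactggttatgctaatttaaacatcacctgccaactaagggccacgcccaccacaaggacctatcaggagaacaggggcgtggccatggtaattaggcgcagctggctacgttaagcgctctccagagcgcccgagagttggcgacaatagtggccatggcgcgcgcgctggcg
Mvk (chr5:114444019-114444318, plus strand): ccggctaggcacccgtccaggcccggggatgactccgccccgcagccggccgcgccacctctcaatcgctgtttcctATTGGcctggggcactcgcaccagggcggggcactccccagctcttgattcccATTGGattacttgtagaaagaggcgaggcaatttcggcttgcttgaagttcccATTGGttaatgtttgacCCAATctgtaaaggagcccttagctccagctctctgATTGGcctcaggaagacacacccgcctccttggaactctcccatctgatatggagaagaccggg
Etfdh (chr3:79628718-79629017, minus strand): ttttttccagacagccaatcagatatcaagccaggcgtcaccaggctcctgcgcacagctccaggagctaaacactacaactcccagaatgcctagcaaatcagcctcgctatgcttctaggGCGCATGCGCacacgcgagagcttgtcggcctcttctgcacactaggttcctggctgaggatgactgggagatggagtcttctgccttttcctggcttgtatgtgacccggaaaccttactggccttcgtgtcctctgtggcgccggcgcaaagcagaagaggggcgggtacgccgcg
Elovl5 (chr9:77917115-77917414, plus strand): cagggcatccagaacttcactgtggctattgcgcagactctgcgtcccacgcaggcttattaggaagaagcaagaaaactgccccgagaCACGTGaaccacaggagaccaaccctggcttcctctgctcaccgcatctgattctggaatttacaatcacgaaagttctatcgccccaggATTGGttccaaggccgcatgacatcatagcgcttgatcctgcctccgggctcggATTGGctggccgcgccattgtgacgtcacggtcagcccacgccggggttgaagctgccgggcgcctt
Hadhb (chr5:30155003-30155302, plus strand): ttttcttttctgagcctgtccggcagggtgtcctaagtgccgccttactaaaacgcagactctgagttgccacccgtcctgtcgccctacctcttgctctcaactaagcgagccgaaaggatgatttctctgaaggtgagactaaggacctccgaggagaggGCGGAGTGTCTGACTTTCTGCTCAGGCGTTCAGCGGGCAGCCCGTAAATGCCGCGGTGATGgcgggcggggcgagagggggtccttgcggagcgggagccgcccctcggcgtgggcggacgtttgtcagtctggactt
Elovl6 (chr3:129532136-129532435, plus strand): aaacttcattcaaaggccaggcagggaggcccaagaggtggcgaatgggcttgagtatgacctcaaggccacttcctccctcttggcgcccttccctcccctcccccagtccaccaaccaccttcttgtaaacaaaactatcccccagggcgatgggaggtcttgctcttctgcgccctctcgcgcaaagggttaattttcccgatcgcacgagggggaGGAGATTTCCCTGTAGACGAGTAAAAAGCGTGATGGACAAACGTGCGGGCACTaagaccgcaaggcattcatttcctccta

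Most of the lipid genes had open chromatin at a gene end in every library of both genotypes. Either annotated end was accepted, because the gene table gives no strand. A summit lay within 1 kb of an end in all 6 libraries for 38 of the 43 genes (88.4%), against 11385 of all 21631 genes (52.6%). Acacb, Elovl1 and Mlxipl had none in any library, and Elovl6 and Fdft1 had one in some libraries only. The number of lipid genes with such a summit was 38, 40 and 39 in AD/- libraries 1 to 3 and 38 in each null library. As a share this was 90.7% ± 2.33 in AD/- and 88.4% ± 0 in null libraries (SD, n = 3 each). The 2 Elovl6 calls and the 1 Fdft1 call make up the whole of that difference of 2.33 percentage points. Over all genes the share was 55.8% ± 1.79 in AD/- and 56.4% ± 0.10 in null libraries.

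No lipid gene had a gene-end summit in all 3 libraries of 1 genotype while absent from the 3 of the other genotype. Of the 43 genes, 0 were called in AD/- alone, where 0.0185% of all genes (4) were called, and 0 in null alone, where 0.0324% (7) were. Against backgrounds this low, a count of 0 among 43 genes says little. Without AD/- library 1, the count in AD/- alone was 1 (Elovl6), against 0.0601% of all genes under the same setting. Since 3 libraries against 3 can reach no exact two-sided p below 0.1, these calls are counts and not tests.

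**Figure D1:**
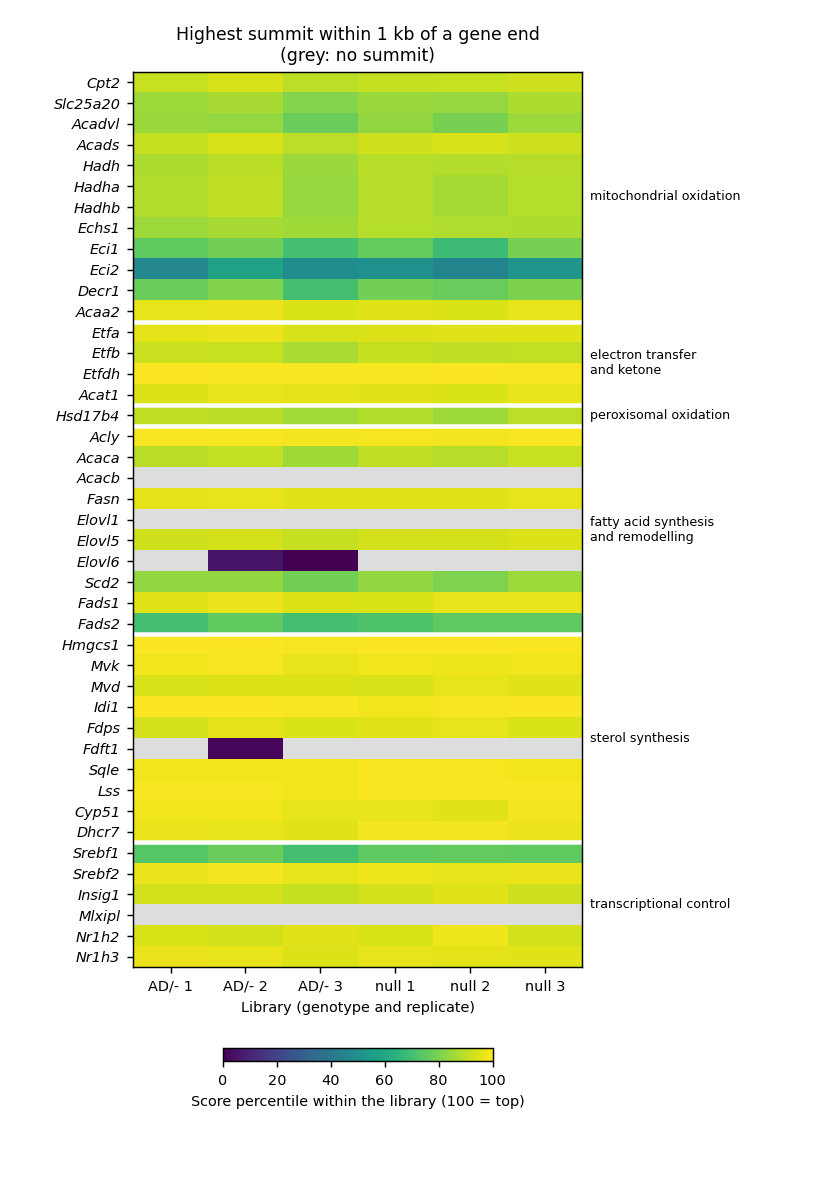
Colour gives the score percentile (100 at the top of its library's list) of the highest summit within 1 kb of an annotated end of each gene, with AD/- libraries 1 to 3 on the left, null libraries 1 to 3 on the right and grey where there is none. Presence is the same in all columns except at Elovl6, with 5.5 and 0.3 in AD/- libraries 2 and 3, and Fdft1, with 1.8 in AD/- library 2. AD/- library 3 has the lowest percentile at many of the genes, though not at Echs1 or Eci2.

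The score of a summit was ranked within its own library, so that a percentile compares sites of 1 library and shows no change between libraries. The median gene-end percentile, taken over the 40 lipid genes with a summit in at least 1 library, was 93.3, against 87.6 over the 12835 of all genes that had one. By group it was 97.5 for sterol synthesis, 95.4 for electron transfer and ketone metabolism, 94.3 for transcriptional control, 91.7 for fatty acid synthesis and remodelling, 89.2 for the 1 peroxisomal gene and 87.9 for mitochondrial oxidation. The 5 highest genes were Hmgcs1, Etfdh, Idi1, Lss and Acly, and 3 of them make sterols. Fdft1, Elovl6, Eci2, Fads2 and Srebf1 were the 5 lowest. Over the 38 genes with a gene-end summit in every library, the percentiles of the genotypes did not overlap at 4 (10.5%), all higher in null. This compares with 5.24% of the 11385 such genes. The highest AD/- and lowest null values were 86.76 and 87.78 at Echs1 and 97.93 and 98 at Sqle. They were 98.78 and 98.95 at Lss and 97.03 and 97.04 at Dhcr7, so most of the gaps were narrow. None of the 38 was higher in AD/-, against 1% of those genes. Ranks from lists of unequal length show no change in the chromatin, and no test was made of them. For 21 of the 43 genes (48.8%) another protein-coding gene ended within 1 kb, against 25.1% of all genes, and a summit there cannot be assigned to 1 of the pair.

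All 12 genes of mitochondrial fatty acid oxidation had a gene-end summit in all 6 libraries. They are Cpt2 and Slc25a20, which bring acylcarnitines into the matrix; Acadvl and Acads, the very long and short chain dehydrogenases; Hadh, Hadha, Hadhb, Echs1 and Acaa2, which carry out the hydration, oxidation and thiolysis steps; and Eci1, Eci2 and Decr1, auxiliary enzymes for unsaturated chains. Their medians over libraries ran from 49.3 at Eci2 to 95.7 at Acaa2. The matrix carnitine transferase gene Cpt2 (chromosome 4, 107903982 to 107923589) had percentiles of 91.7, 93.8 and 90.1 in AD/- libraries and 91.1, 91.5 and 92.7 in null libraries, and the genotypes overlapped. Eci2, the lowest, had 46.4, 57.7 and 48.5 in AD/- and 50.1, 45.2 and 52.1 in null libraries. That summit sits at the upper annotated end (chromosome 13, 35027115), far from the start site in the promoter table (34994144), and at the start site itself Eci2 had 86.6, 87.1 and 82.6 in AD/- and 86, 86.7 and 91 in null libraries. So the low rank of Eci2 belongs to a distant annotated end and not to the start site of the table.

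Hadha and Hadhb encode the alpha and beta subunits of the mitochondrial trifunctional protein and are transcribed away from each other on chromosome 5. A single region at 30155207 served both, lying 46 bp before the Hadhb start and 227 bp before the Hadha start. Its percentiles were 88.4, 90.5 and 84.3 in AD/- libraries and 89.2, 86.5 and 88.7 in null libraries. The 6 summits fell within the 61 capital letters of the Hadhb promoter above, and this was the 1 region at a gene end that a pair of the 43 genes shared.

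The electron transfer genes pass electrons from the acyl-CoA dehydrogenases to ubiquinone: Etfa and Etfb encode the heterodimeric carrier and Etfdh the membrane oxidoreductase. Acat1 encodes the mitochondrial acetoacetyl-CoA thiolase. All 4 had a gene-end summit in every library. Etfdh (chromosome 3, 79603788 to 79628767) had 99.5, 99.2 and 98.9 in AD/- libraries and 99, 99.6 and 99.1 in null libraries, the highest median (99.1) of the oxidation genes, although 4930579G24Rik ends 219 bp from the same region. Etfa had no other region within 20 kb of the gene, and its window held 1 summit in each of the 6 libraries. Hsd17b4, the peroxisomal multifunctional enzyme, had 90.3, 89.8 and 86.1 in AD/- and 88.5, 85.2 and 89.9 in null libraries. No member of these groups separated the genotypes at its gene end.

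Of the 10 genes of fatty acid synthesis and remodelling, 7 had a gene-end summit in all 6 libraries, 2 (Acacb and Elovl1) had none and Elovl6 had one in 2 libraries. Acly, which splits citrate to supply cytosolic acetyl-CoA, was the highest of the group with 99.2, 98.9 and 98.4 in AD/- libraries and 98.5, 98.1 and 98.9 in null libraries. Fasn, the fatty acid synthase, had 95.9, 96.6 and 95.1 in AD/- and 95, 95 and 96.6 in null libraries. The fatty acid desaturase gene Fads2 (delta-6 desaturase) was the lowest gene of the group with a summit in every library, at 70.5, 75.7 and 70.3 in AD/- and 72.2, 75.2 and 75.2 in null libraries, while its neighbour Fads1 (delta-5 desaturase) had a median of 96.0. Fads1 and Fads2 lie side by side but did not share a gene-end region. Scd2, a stearoyl-CoA desaturase, had a median of 83.6, and Elovl5, an elongase of polyunsaturated chains, 93.4.

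The 2 acetyl-CoA carboxylase genes, which make malonyl-CoA, both lacked a summit within 1 kb of the start site in the promoter table. For Acaca the gene-end summit lay at the lower annotated end, at a median percentile of 90.1, beside an end of Tada2a and far upstream of that start site (chromosome 11, 84129635 and 84195438). For Acacb, encoding the mitochondrial-surface isoform, the nearest summit was about 10.3 kb downstream of the start site, with percentiles of 83.1, 84.6 and 78.3 in AD/- and 84.2, 81.1 and 83.2 in null libraries. The Acacb window still held 7 regions, each found in all 6 libraries. Elovl1, an elongase of very long chains, had no summit at its gene ends but one at an internal start site (chromosome 4, 118428093) with 90.9, 92.2 and 86.9 in AD/- and 89.4, 89.8 and 90.9 in null libraries.

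Elovl6 (chromosome 3, 129532386 to 129638495, plus strand), which elongates palmitate to stearate, was the 1 gene with a start-site summit in some libraries only. A summit was called 31 bp upstream of the start in AD/- library 2 and 21 bp downstream in AD/- library 3, and none within 1 kb in AD/- library 1 or in the 3 null libraries. The exact two-sided permutation test gave p = 0.4 for presence in 2 of 3 AD/- against 0 of 3 null libraries. Both summits ranked low, at percentiles 5.5 and 0.3, with scores of 4.10 and 1.76 against a threshold of 1.3 that corresponds to a q-value of 0.05. The next region, 1432 bp inside the gene, was found in all 6 libraries, with 83.2, 83.9 and 77.1 in AD/- and 79.2, 82.1 and 81.2 in null libraries. Regions 4000 and 20991 bp inside the gene were likewise present in all 6, at 81.8, 81.7 and 79.2 and then 85.8, 85.7 and 81.4 in AD/-, and at 83.2, 87.2 and 81.6 and then 85.5, 87.7 and 85 in null libraries. Within 2 kb of a gene end every library had a summit, and the difference in presence was 0. It was also 0 when summits had to score at least 5.

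Sterol synthesis had the highest gene-end percentiles, and 9 of its 10 genes had a gene-end summit in all 6 libraries. Hmgcs1 (chromosome 13, 119690351 to 119708260), which makes HMG-CoA, had 99.5, 99.5 and 98.8 in AD/- libraries and 99.4, 99.3 and 99.2 in null libraries. The kinase and decarboxylase of the mevalonate branch followed, with medians of 97.9 for Mvk and 94.7 for Mvd. Idi1, the isopentenyl diphosphate isomerase, had 99.3, 99.4 and 99 in AD/- and 97.8, 98.6 and 99.4 in null libraries. Lss, which closes the sterol rings as lanosterol, had 98.5, 98.8 and 98 in AD/- and 99, 99.2 and 99 in null libraries. Fdps (farnesyl diphosphate), Sqle (squalene epoxidation), Cyp51 (lanosterol demethylation) and Dhcr7 (the last reduction to cholesterol) had medians of 94.7, 98, 97.1 and 97. At none of these genes did presence separate the genotypes.

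Fdft1, squalene synthase (chromosome 14, 63145150 to 63181687), was the exception, with a gene-end summit in AD/- library 2 alone, at percentile 1.8 and a score of 2.73. An end of Ctsb lies 286 bp from that summit, so it cannot be assigned to Fdft1. The region that ranked highest in the Fdft1 window lay inside the gene, 3651 bp from the upper end, and was found in every library, with 99.1, 98.9 and 99.5 in AD/- and 99.2, 98.9 and 98 in null libraries. Its ranks were like those at the ends of Hmgcs1 and Idi1, and it lies outside the 1 kb that the gene-end measure covers.

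Of the 6 control genes, Srebf2, Insig1, Nr1h2, Nr1h3 and Srebf1 had a gene-end summit in all 6 libraries and Mlxipl had none. Srebf2, the SREBP that acts mainly on sterol genes, had a median of 97.1, and Insig1 93.1. The highest gene-end summits of Srebf1, Nr1h2 and Nr1h3 lay at the end opposite to the start, near an end of Rai1, Pold1 and Madd respectively. Nr1h2 and Nr1h3 also had a gene-end region at the 5′ end in all 6 libraries, at medians of 88.1 and 83.9. The one at Nr1h3 lies beside an end of Acp2. The start sites of the promoter table were therefore read for Srebf1, Nr1h2 and Nr1h3. Srebf1 (SREBP-1, the fatty acid branch) was open at each of its 3 start sites on chromosome 11 in all libraries. At 60210471 it had 90.3, 91 and 87.5 in AD/- and 90.4, 94.1 and 91.8 in null libraries, at 60220627 a median of 85.7, and at 60222581 a median of 77.2. The liver X receptor genes had start-site percentiles of 89.1, 89 and 82 in AD/- and 85.9, 87.1 and 89.3 in null libraries for Nr1h2 (LXR beta), and 69.8, 73.1 and 62.3 in AD/- and 66.3, 69 and 70.5 in null libraries for Nr1h3 (LXR alpha). Mlxipl, the carbohydrate-responsive factor ChREBP, had no summit at its ends but was open at the downstream one of its 2 start sites (chromosome 5, 135106891), with 62.7, 63.5 and 58.9 in AD/- and 65.9, 66.4 and 64.6 in null libraries. At its upstream start the nearest summit was 11580 bp away.

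**Figure D2:**
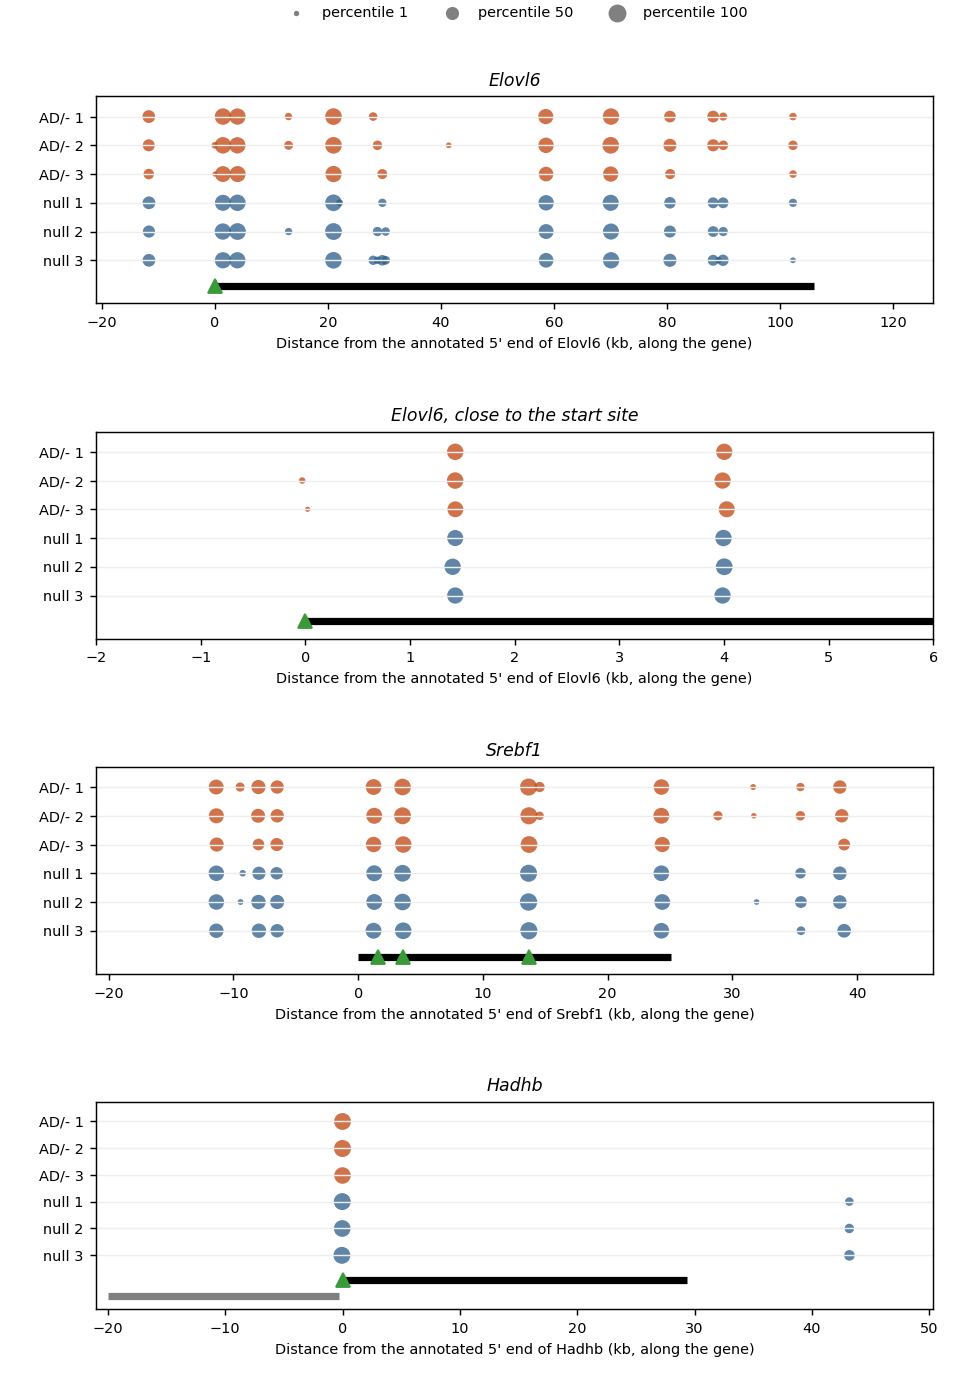
Summits of each library (one row each, AD/- above null) around Elovl6, the start of Elovl6 enlarged, Srebf1 and Hadhb, with dot size for score percentile, black bars for the gene, a grey bar for Hadha and green triangles for start sites; the axis is distance from the annotated 5′ end in kb. The small dots at 0 kb of Elovl6 occur in AD/- libraries 2 and 3, the large ones 1432 bp inside in all 6, and the dots right of Hadhb in the 3 null libraries.

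With start sites in place of gene ends, 34 of the 43 genes had an entry, and 31 of these (91.2%) had a summit within 1 kb of a start site in all 6 libraries, against 9530 of 17274 genes (55.2%). Acaca and Acacb had none and Elovl6 had one in some libraries. The 34 genes have 41 annotated start sites, of which 36 had a summit within 1 kb in every library. At these 36 the position of the nearest summit varied by a median of 44.5 bp over the 6 libraries (0 to 339). The median offset was -41.75 bp (negative is upstream), with 24 sites upstream and 12 downstream. In Elovl5 the summit stood 29 bp downstream of the start in all 6 libraries, and in Dhcr7 194 bp upstream of its first start. Acadvl varied most, with summits 26 to 365 bp downstream.

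**Figure D3:**
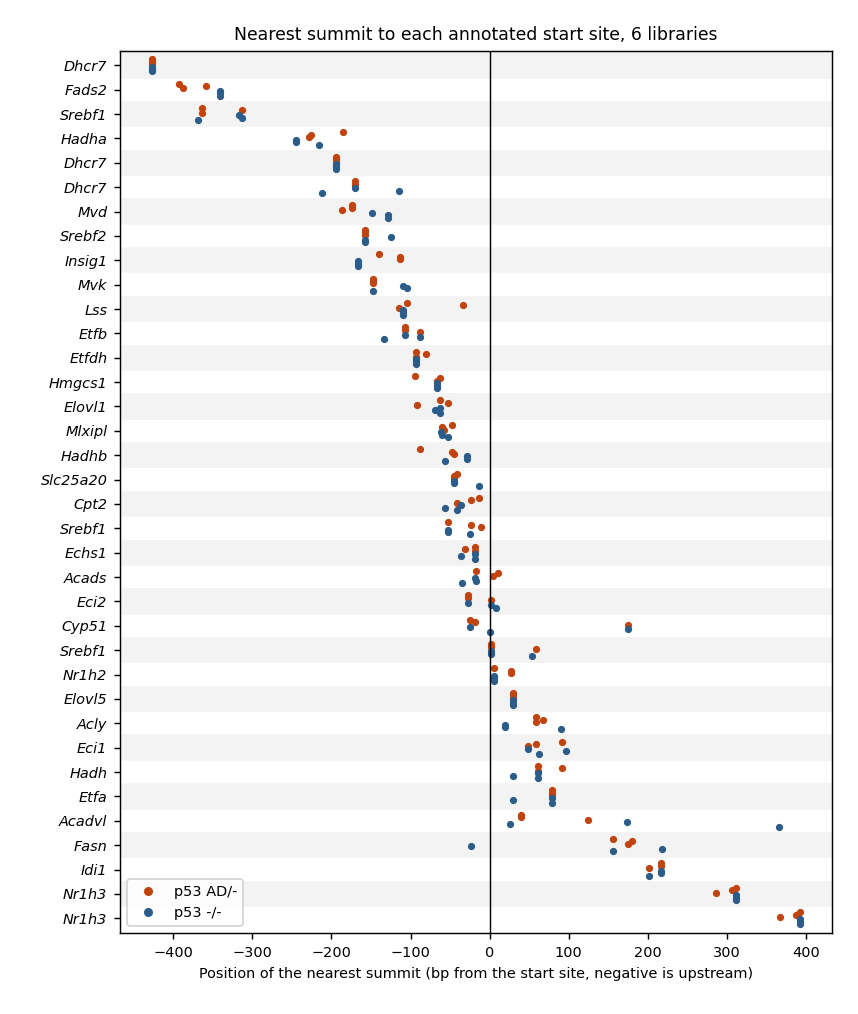
Position of the nearest summit at each of 36 start sites, in bp along the gene (negative is upstream), with AD/- libraries in orange and null libraries in blue. Elovl5 has all 6 points at 29 bp, Acadvl spreads from 26 to 365 bp, and 24 of the sites have their median upstream of the start.

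Counting all summits in the gene and 20 kb on each side gave like numbers in the genotypes, with a median of 4 per gene in AD/- and 4 in null libraries (2.67 and 3 over all genes). The lipid genes were longer, with a median of 24980 bp against 17329 bp over all genes. The part of gene length in these counts was not tested. The groups did not overlap at 2 of the 43 genes (4.65%), Hadhb and Acaca, both higher in null. Over all genes 0.869% were higher in null (188 genes). All genes here means 21631, of which 16799 had a summit in the window, and the rest could not be called. No lipid gene was higher in AD/- by this rule, where 0.337% of all genes were (73 genes). The exact two-sided permutation test gave p = 0.1 for both genes, the smallest it can give, and an adjusted p of 1 over the 16799 genes tested by the Benjamini-Hochberg method. Over those genes 0 had an unadjusted p under 0.05, which 3 against 3 libraries cannot reach. Without AD/- library 3, which had the shortest list, 3 genes were higher in AD/- (Eci2, Srebf1 and Dhcr7), against 2.61% of all genes (565) under the same setting. Without AD/- library 2, 3 genes were higher in null (Insig1 beside Hadhb and Acaca), against 5.11% of all genes.

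Hadhb had 1 summit in each AD/- library and 2 in each null library. The extra summits formed 1 region on chromosome 5 at 30198448, 13855 bp beyond the 3′ end of Hadhb and 5017 bp from an end of Adgrf3, at percentiles 16.3, 21.9 and 29.7 in the null libraries. The nearest AD/- summit was 16647 bp away. Acaca had 3, 4 and 4 summits in AD/- and 5, 5 and 5 in null libraries, a difference of -1.33 (AD/- minus null). The null libraries did not share an extra site there: null library 1 had its own at 84243805, null library 2 at 84174855 and null library 3 at 84188747, at percentiles 23.8, 10 and 19.2. A region at 84169075 was missing from AD/- library 1 only. In lists shortened to the 44492 top summits of each library the genotypes overlapped at both genes, with a difference of -0.67 at each. With 5 kb around the gene in place of 20 kb, Hadhb no longer differed. With 50 kb the genotypes overlapped at both genes.

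**Figure D4:**
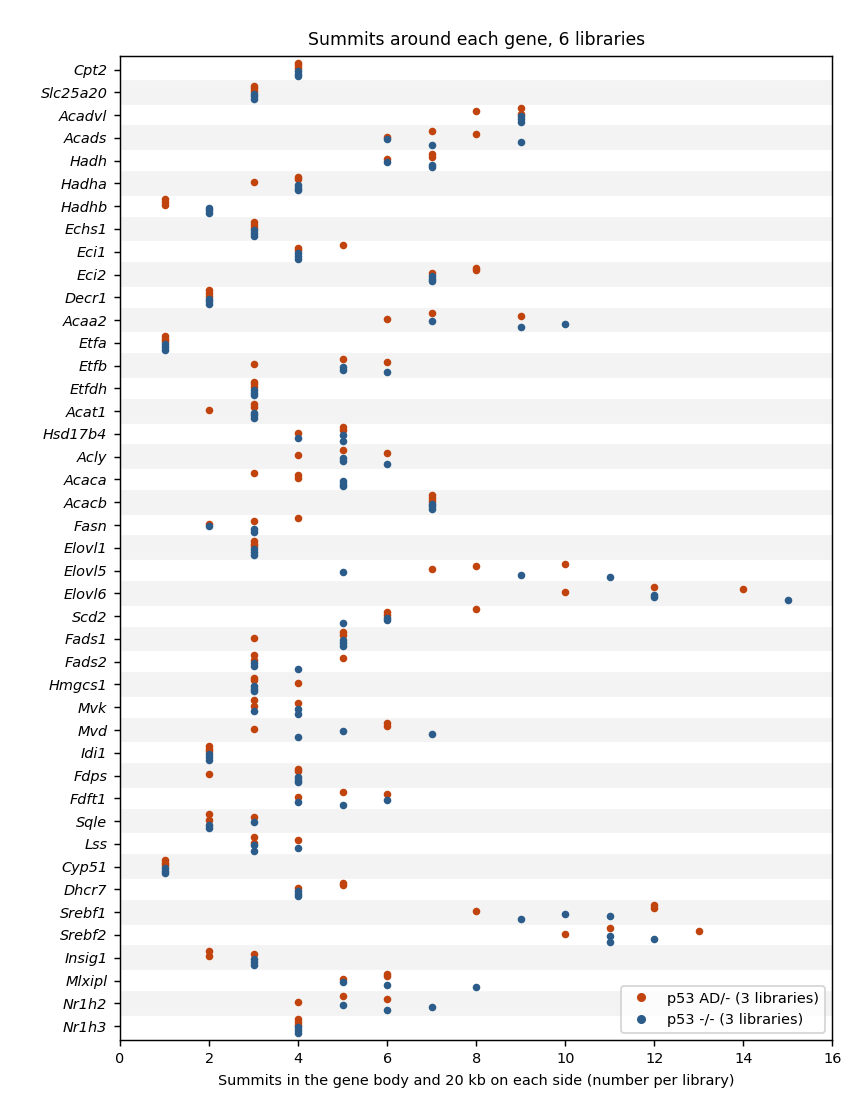
Number of summits in each gene and 20 kb on each side (horizontal axis), 1 dot per library, with AD/- in orange above null in blue. The colours separate at Hadhb (1 against 2) and Acaca (3 to 4 against 5) and overlap or touch at the other 41 genes.

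The windows of the 43 genes held 259 distinct regions, made by extending each summit by 250 bp on each side and merging overlaps. Of these, 157 (60.6%) were found in all 6 libraries and 28 (10.8%) in 1, against 52.1% and 16.4% of all 73702 regions. At the gene ends 41 of 45 regions (91.1%) were in all 6, and elsewhere 54.2% of 214 were. A region in all 3 AD/- and no null library was found 0 times among the 259, against 0.179% of all regions. The reverse was found once (0.386%), at the Hadhb site above, against 0.418% of all regions. Without AD/- library 3 the count in AD/- alone was 3 of 255 regions (1.18%), against 1.08% of all regions under the same setting. Without null library 1 the count in null alone was 3 of 258 (1.16%), against 1.26%. Without AD/- library 1 it was 2 in each direction, against 0.444% of all regions in AD/- alone and 0.822% in null alone. Without AD/- library 2 it was 1 in AD/- alone and 2 in null alone, against 0.398% and 1.84%, and without null library 2 it was 2 in null alone, against 1.08%.

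**Figure D5:**
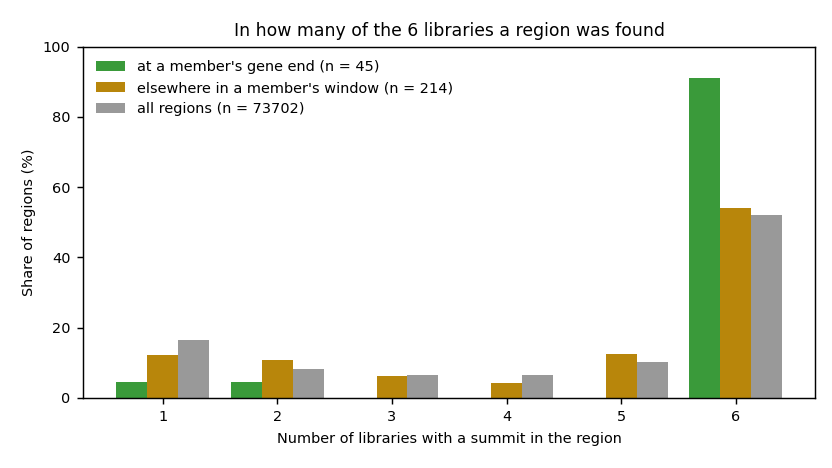
Share of regions (vertical axis, %) by the number of libraries that have a summit in the region, for 45 regions at a gene end of the lipid genes, 214 elsewhere in their windows and all 73702 regions. The bar at 6 libraries stands at 91.1% for gene ends, 54.2% elsewhere and 52.1% for all regions.

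When 2 of 3 libraries against 0 sufficed, 6 regions (2.32%) were called in AD/- and 4 (1.54%) in null, against 1.51% and 2.37% of all regions. The AD/- regions lay in Elovl6 (the start site), Elovl5, Srebf1 and in the windows of Eci2, Scd2 and Dhcr7, and the null regions in the windows of Hadhb, Acaa2 and Fdft1 and inside Elovl6. Several had a summit of the other genotype close by, for example 594 bp away at Eci2, 543 bp at Elovl5 and 860 bp at Srebf1. At Srebf1 that summit belongs to the start-site region found in all 6 libraries. Elovl6 thus had 1 region of each kind.

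Per library, AD/- libraries had a summit in 209, 220 and 175 of the 259 regions and null libraries in 198, 213 and 215. The shares were 77.7% ± 9.02 in AD/- and 80.5% ± 3.6 in null libraries (SD, n = 3 each), a difference smaller than the spread between AD/- libraries. AD/- library 3 was the low one, with 67.6% of these regions and 60.2% of all regions. Of the 27 regions found in 5 libraries, 19 were missing from AD/- library 3 alone. Over all regions this held for 5582 of the 7628 found in 5 libraries.

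Elovl6 had the most regions in its window (19, of which 7 in all 6 libraries), followed by Elovl5 with 15, Srebf2 with 14 and Srebf1 with 13. Acadvl and Acaa2 came next with 10 each. The Elovl6 window held 12, 14 and 10 summits in AD/- and 12, 12 and 15 in null libraries, and that of Elovl5 10, 8 and 7 in AD/- and 5, 9 and 11 in null libraries. Srebf2 had 11, 13 and 10 in AD/- and 11, 12 and 11 in null libraries, and Srebf1 12, 12 and 8 in AD/- and 10, 11 and 9 in null libraries. In all 4 the genotypes overlapped. Etfa and Cyp51 had the fewest regions, 1 each, while Hadhb, Decr1 and Idi1 had 2.

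Apart from gene ends and the start sites of the promoter table, 73 regions more than 1 kb from either were found in all 6 libraries. They lay in the windows of 30 genes, 35 of them inside the gene. For the regions around Acaa2 and Hsd17b4 no distance to a start site was available, so only gene ends were checked there. The median percentile of the 73 regions was 56.9 (15.6 to 99), against 93.1 for the 41 gene-end regions present in all 6. The internal Fdft1 region ranked highest, although the start site of Fdft1 was not in the table used. Next came a region 6621 bp upstream of Elovl5, with 97.2, 97.4 and 94 in AD/- and 97, 93.5 and 97.6 in null libraries, which ranked above the Elovl5 start itself by its median (97.1 against 93.4). A region 9316 bp outside Scd2 (chromosome 19, 44284360) had 95.9, 94.7 and 95.7 in AD/- and 96.2, 97 and 95 in null libraries. Inside Acaca, a region at 84179590 on chromosome 11 had 94.7, 94.9 and 90.4 in AD/- and 92.2, 90.2 and 96.6 in null libraries.

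The promoters with an entry were searched on both strands for motifs of factors known to act on lipid genes. The sterol regulatory element TCACNCCAC, bound by SREBPs, was in the window of 2 of the 34 genes (5.88%), against 1.42% of 17274 genes. The CCAAT box of NF-Y, which acts beside SREBPs at sterol genes, was in 21 (61.8%), against 42.7%, and in 7 of the 7 sterol synthesis genes with an entry but 2 of 10 mitochondrial oxidation genes. The GC box GGGCGG, bound by Sp1-type factors, was in 25 (73.5%), against 49.8%. The NRF1 motif GCATGCGC, of a factor for nuclear genes of mitochondria, was in 3 (8.82%; Etfa, Etfdh and Mvd), against 3.98%. The E-box CACGTG was in 4 (11.8%), against 9.02%. The element of the ERR receptors, TCAAGGTCA, was in 0, against 0.382%, and exact repeats of AGGTCA spaced by 4 bases (LXR, DR4) or 1 base (PPAR, DR1) were in 0, against 0% and 0.0579%. With shares this low over all genes, a count of 0 among 34 genes says little about elements of these receptors. These promoters were richer in GC, with a median of 62.3% GC and 19.5 CpG against 57.3% and 15 over all genes, and the part of base composition in the motif shares was not tested.

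In the Hmgcs1 promoter printed above the sterol regulatory element runs from -137 to -129 bp relative to the start, with the median summit at -67 bp. The window holds 4 CCAAT boxes. In Mlxipl the element runs from -136 to -128 bp relative to the downstream start, with the median summit at -59 bp. Mvk holds 5 CCAAT boxes. In Etfdh the 2 NRF1 matches overlap on opposite strands from -128 to -119 bp, with the median summit at -93 bp. A match is a run of letters and not a measured binding site.

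A further 75 lipid genes, listed for the same pathways but not among the 43, were counted in the same way. Of these 62 (82.7%) had a gene-end summit in all 6 libraries, 8 had none (Acox2, Acsl5, Gpam, Insig2, Pmvk, Scd3, Scd4 and Thrsp) and 5 had one in some libraries. The share per library was 84.9% ± 2.04 in AD/- and 85.8% ± 0.77 in null libraries (SD, n = 3 each). Of these genes 0 were called at a gene end in AD/- alone and 0 in null alone, against 0.0185% and 0.0324% of all genes. In summits per window 0 of the 75 were higher in AD/- and 0 in null, against 0.337% and 0.869% of all genes. Of their 405 regions 0 were called in AD/- alone and 0 in null alone, against 0.179% and 0.418% of all regions, so these counts of 0 say little. Cpt1a, the outer-membrane carnitine transferase, had 80.2, 83.4 and 79.2 in AD/- and 81.2, 80.6 and 81.3 in null libraries. It was chosen as an example after its values were seen.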

How the data were processed

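Open chromatin was measured by ATAC-seq in 6 thymus libraries, 3 of p53 AD/- and 3 of p53 -/- mice, grouped by the genotype label. Peaks were called per sample, and their summits form 1 deposited list for each library. Each deposited score was read as the −log10 of the caller's q-value, since scores begin near 1.3, which corresponds to a q-value of 0.05. The submitters' processing notes name GRCm38 as the build and list MACS2 (2.1.2), Picard (2.9.0), Bowtie2 (2.3.4.2) and Trim Galore (0.4.5), with no settings. Any shift of reads for the transposase cut, removal of duplicates or masking was not given in the sources used here. Depth in reads is unknown; list length stands in for it.

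Regions were built in Python 3.11.15 (pandas 2.3.3, NumPy 2.4.6) from the summits on chromosomes 1 to 19 and X, each widened by 250 bp to both sides and joined where they overlapped. Gene ends came from a RefSeq table on GRCm38 without strand; a summit within 1 kb of either end counted. Start sites, strands and sequences came from the RefSeq promoter table (GRCm38.p6), in which 34 of the 43 genes were found by symbol. A call needed a summit in all 3 libraries of 1 genotype and its absence from the other 3. Summits per gene window (20 kb on each side) were compared by an exact two-sided permutation test over 20 relabellings, adjusted over all genes by the Benjamini-Hochberg method (SciPy 1.17.1, statsmodels 0.14.6). The calls were tested on simulated data. Percentiles rank a score within its own library.

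The genes, lists, named-gene rule and tests were chosen with earlier results of these data known. Named with values are genes with a gene-end summit in some or no libraries, genes called in regions or windows, the 5 highest and 5 lowest by median percentile, the 5 with most and the 3 with fewest regions, and pairs sharing a region; other values are examples. Alternatives were 500 bp and 2 kb for gene ends, 5 and 50 kb for windows, widening by 100 or 500 bp, start sites alone, equal list lengths, scores of 5 or more, presence in 2 of 3 libraries, and leaving out each library. Peak widths and coverage were not used here.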

Additional observations from a re-analysis of the deposited data

How the results depend on the processing

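Of 120 recomputed values over 11 results, 100 stayed on the same side of the test's threshold or, with no test, close to the value reported, and 20 moved. The Elovl6, Hadhb and Acaca values were judged by a test at 0.05, and no exact p below 0.1 is possible. Their values could therefore leave the 100 only by changing to the opposite sign, which none did, so their place there says little. The difference in the share of lipid genes with a gene-end summit (AD/- minus null, 2.33 points) changed sign to -0.78 within 2 kb of a gene end, was 0 with a score of at least 5, and ran from 1.16 to 3.49 when 1 library was left out. Leaving out 1 library gave 0 to 1 gene ends in AD/- alone, 0 to 3 regions in AD/- alone, 1 to 3 regions in null alone, 0 to 3 windows higher in AD/- and 2 to 3 windows higher in null. The highest counts came without AD/- library 1 for gene ends and without AD/- library 3 for AD/- regions and windows. With 2 of 3 libraries against 0 sufficing, 6 regions were called in AD/- and 4 in null. With 50 kb around the gene, 2 regions were called in AD/- and 2 in null, and 1 window was higher in null. That window was neither Hadhb nor Acaca, where the genotypes overlapped at 50 kb (difference -1.33, exact permutation p = 0.3 at each). With 5 kb, 0 regions were called in null and 1 window was higher in null. In lists of equal length 0 windows were higher in null. For the 50 kb, 5 kb and equal-length settings the share over all genes or regions was not computed, so these counts cannot be read against a background. The cause of these shifts was not tested, apart from the looser rule, which by construction calls more. The median gene-end percentile was 92.0 within 500 bp, against 93.3. This, and the values for the Hadhb and Acaca windows under other settings, were chosen after seeing the data. The Elovl6 difference in presence (0.667, exact permutation p = 0.4) was 0.333 in lists of equal length and 0 within 2 kb or with a score of at least 5, where no test passed its threshold before or after. The Hadhb window difference (-1, AD/- minus null) was 0 with 5 kb around the gene.

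No paired analysis was possible because the labels carry no replicate numbers and the numbers used follow the order of deposition. Read depth is unknown, so a summit that was not called is not evidence of closed chromatin, and AD/- library 3 had the shortest list. Single genes cannot pass a test with 3 against 3 libraries. A gene end shared with a neighbour cannot be assigned.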
